A study of Mus musculus with 4 samples.

Results

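The genes described here are 6 of the 31053 features in the count tables, across the marker-gated cell classes of mouse brain after stroke. Lcn2 encodes lipocalin 2, a secreted protein that binds iron-carrying siderophores. Serpina3n encodes a secreted inhibitor of serine proteases, Osmr the receptor chain for oncostatin M, Il6st the gp130 chain shared by receptors of the IL-6 family, Stat3 the transcription factor that these receptors activate, and Socs3 a feedback inhibitor of the same signal. They were taken by symbol, 1 feature for each, and were chosen by their UMI levels per class in these same libraries, which earlier work on the data had shown. For that reason, their differences between days and sham are given as a description and no list of them is tested.

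The libraries were made by 10× Genomics single-cell RNA sequencing of the ipsilateral cerebral hemisphere of male mice labelled as 8 weeks old. The 4 groups were a sham operation and transient middle cerebral artery occlusion (tMCAO, an artery blocked and reopened as a model of stroke with reperfusion) at 1, 3 and 7 days, with 1 library for each. The sources differ on when the sham brain was taken, since the series text gives day 7 whereas the study's scheme lists samples of days 0, 1, 3 and 7. How many mice entered a library is not given in the sources used here. With 1 library per group no test between groups was possible, no p-value is given, and differences between mice, surgery and library preparation cannot be told apart from differences between days. Every range in parentheses after a level, a ratio or a share is an exact 95% interval that covers counting error only, treating molecules as independent also where a few cells hold most of them.

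Cells with 200 to 3000 genes, of whose molecules no more than 10% were mitochondrial, were retained. These were 44360 of 59429 cells, from 7562 to 14044 in a library, with medians of 2508 to 3732 molecules (UMIs, unique molecular identifiers) per cell. A class was given to a cell that showed at least 3 of the 6 markers of the class and at least 2 more than of any other of the 16 classes, which placed 40315 cells (90.9%), 3320 of them at one of these limits. Endothelial-like cells made up 58.5% of the kept cells, and the 369 astrocyte-like and 112 neutrophil-like cells were few. The deposited libraries held 69392755 to 104023002 UMIs and shared 33 to 88 cell barcodes pairwise. The kept cells held 31155145 of 90607320 UMIs in sham. On days 1, 3 and 7 they held 45258075 of 104023002, 33405478 of 69392755 and 44598322 of 90072740. Levels are counts-per-million (CPM) of all UMIs of a class in a library, and a class with fewer than 50 cells in a library, such as the 47 astrocyte-like cells of day 7, was given no level there, except the neutrophil-like cells, whose levels are given with their cell numbers.

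The acute phase response is a change in the making of secreted proteins after injury or infection. Cytokines of the IL-6 family bind a receptor chain that pairs with gp130, Janus kinases on the receptor then phosphorylate STAT3, and STAT3 dimers enter the nucleus and switch on their targets, SOCS3 among them, which dampens the kinases. In the injured brain, Lcn2 and Serpina3n are widely used as markers of reactive glia, and Lcn2 is also a granule protein gene of neutrophils.

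The 6 genes lie on mouse chromosomes 2, 11, 12, 13 and 15 in the GENCODE vM21 annotation of GRCm38, and all are protein coding. Lcn2 spans chr2:32384633-32388252 on the minus strand, Serpina3n chr12:104406729-104414329 on the plus strand and Socs3 chr11:117966079-117970047 on the minus strand. Stat3 (chr11:100885098-100939540, minus strand) overlaps Stat5a on the opposite strand, which was also counted, whereas Osmr (chr15:6813577-6874969, minus strand) and Il6st (chr13:112464070-112510086, plus strand) overlapped no other gene. The stretches upstream of Lcn2, Serpina3n and Socs3, the genes with the widest spread of levels below, are printed 5′ to 3′ on the strand of the gene from the RefSeq promoter table of GRCm38.p6. They start 250 bases before the RefSeq start, which for Lcn2 and Socs3 lies inside the GENCODE span above. Those of Lcn2 (192 bases, chr2:32387798-32387989) and Socs3 (165 bases, chr11:117969452-117969616) were cut by the annotation. They stop before the first base of an annotated untranslated region, or of an exon of a transcript that is not protein coding. That of Serpina3n holds all 250 bases (chr12:104406458-104406707). Capitals mark matches to TTCNNNGAA, the spaced half-sites that STAT dimers bind, or to TTNNGNAAT, a sequence bound by C/EBP factors, searched on both strands.
Lcn2: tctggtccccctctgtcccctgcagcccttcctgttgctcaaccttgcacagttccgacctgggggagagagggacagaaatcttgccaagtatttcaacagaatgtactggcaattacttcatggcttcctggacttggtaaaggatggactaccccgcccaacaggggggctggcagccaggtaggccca
Serpina3n: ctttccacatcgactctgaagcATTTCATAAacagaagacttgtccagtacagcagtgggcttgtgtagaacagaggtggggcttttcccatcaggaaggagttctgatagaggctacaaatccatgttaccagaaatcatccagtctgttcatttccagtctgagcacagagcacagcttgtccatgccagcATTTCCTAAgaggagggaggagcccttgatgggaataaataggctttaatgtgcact
Socs3: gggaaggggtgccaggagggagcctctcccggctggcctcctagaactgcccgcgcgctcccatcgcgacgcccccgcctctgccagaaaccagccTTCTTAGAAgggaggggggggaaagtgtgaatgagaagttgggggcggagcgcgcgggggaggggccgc

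In the 250 bases before the RefSeq start, Socs3 held 1 match to TTCNNNGAA, and none of the other 5 genes held one. This motif was present in 2306 of 32851 RefSeq promoters of the same length (7.02%). Serpina3n held 2 matches to TTNNGNAAT, both on the other strand, while that motif was present in 10.2% of the promoters. The stricter TTCCNGGAA, whose matches are all matches to TTCNNNGAA too, was found in 0.913% of promoters and in none of the 6. These matches describe letters in the window alone. The GC content of the 6 windows ran from 46.4% for Serpina3n to 71.6% for Socs3, beside a median of 52.4% over all promoters.

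Lcn2 and Serpina3n stood far above their sham level after tMCAO, and their highest levels fell in different classes and on different days. Among classes with at least 50 cells in a library, Lcn2 was highest in endothelial-like cells on day 3, at 1901 CPM (1880 to 1923) against 35.2 CPM (32.4 to 38.2) in sham. Serpina3n was highest in oligodendrocyte progenitor-like cells on day 1, at 1236 CPM (1149 to 1327), and reached 438 CPM (426 to 450) in oligodendrocyte-like cells against 1.77 CPM in sham. Over whole libraries, Lcn2 stood at 32.3, 61.3, 1113 and 83.2 CPM in sham and on days 1, 3 and 7, and Serpina3n had 22, 6787, 839 and 114 UMIs in the same order, that is 0.706 CPM in sham and 25.1 and 2.56 CPM on days 3 and 7. The other 4 genes stayed within narrower limits over whole libraries, Osmr between 47.3 and 139 CPM, Il6st between 56.3 and 117 CPM, Stat3 between 69.7 and 106 CPM and Socs3 between 177 and 277 CPM.

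**Figure D1:**
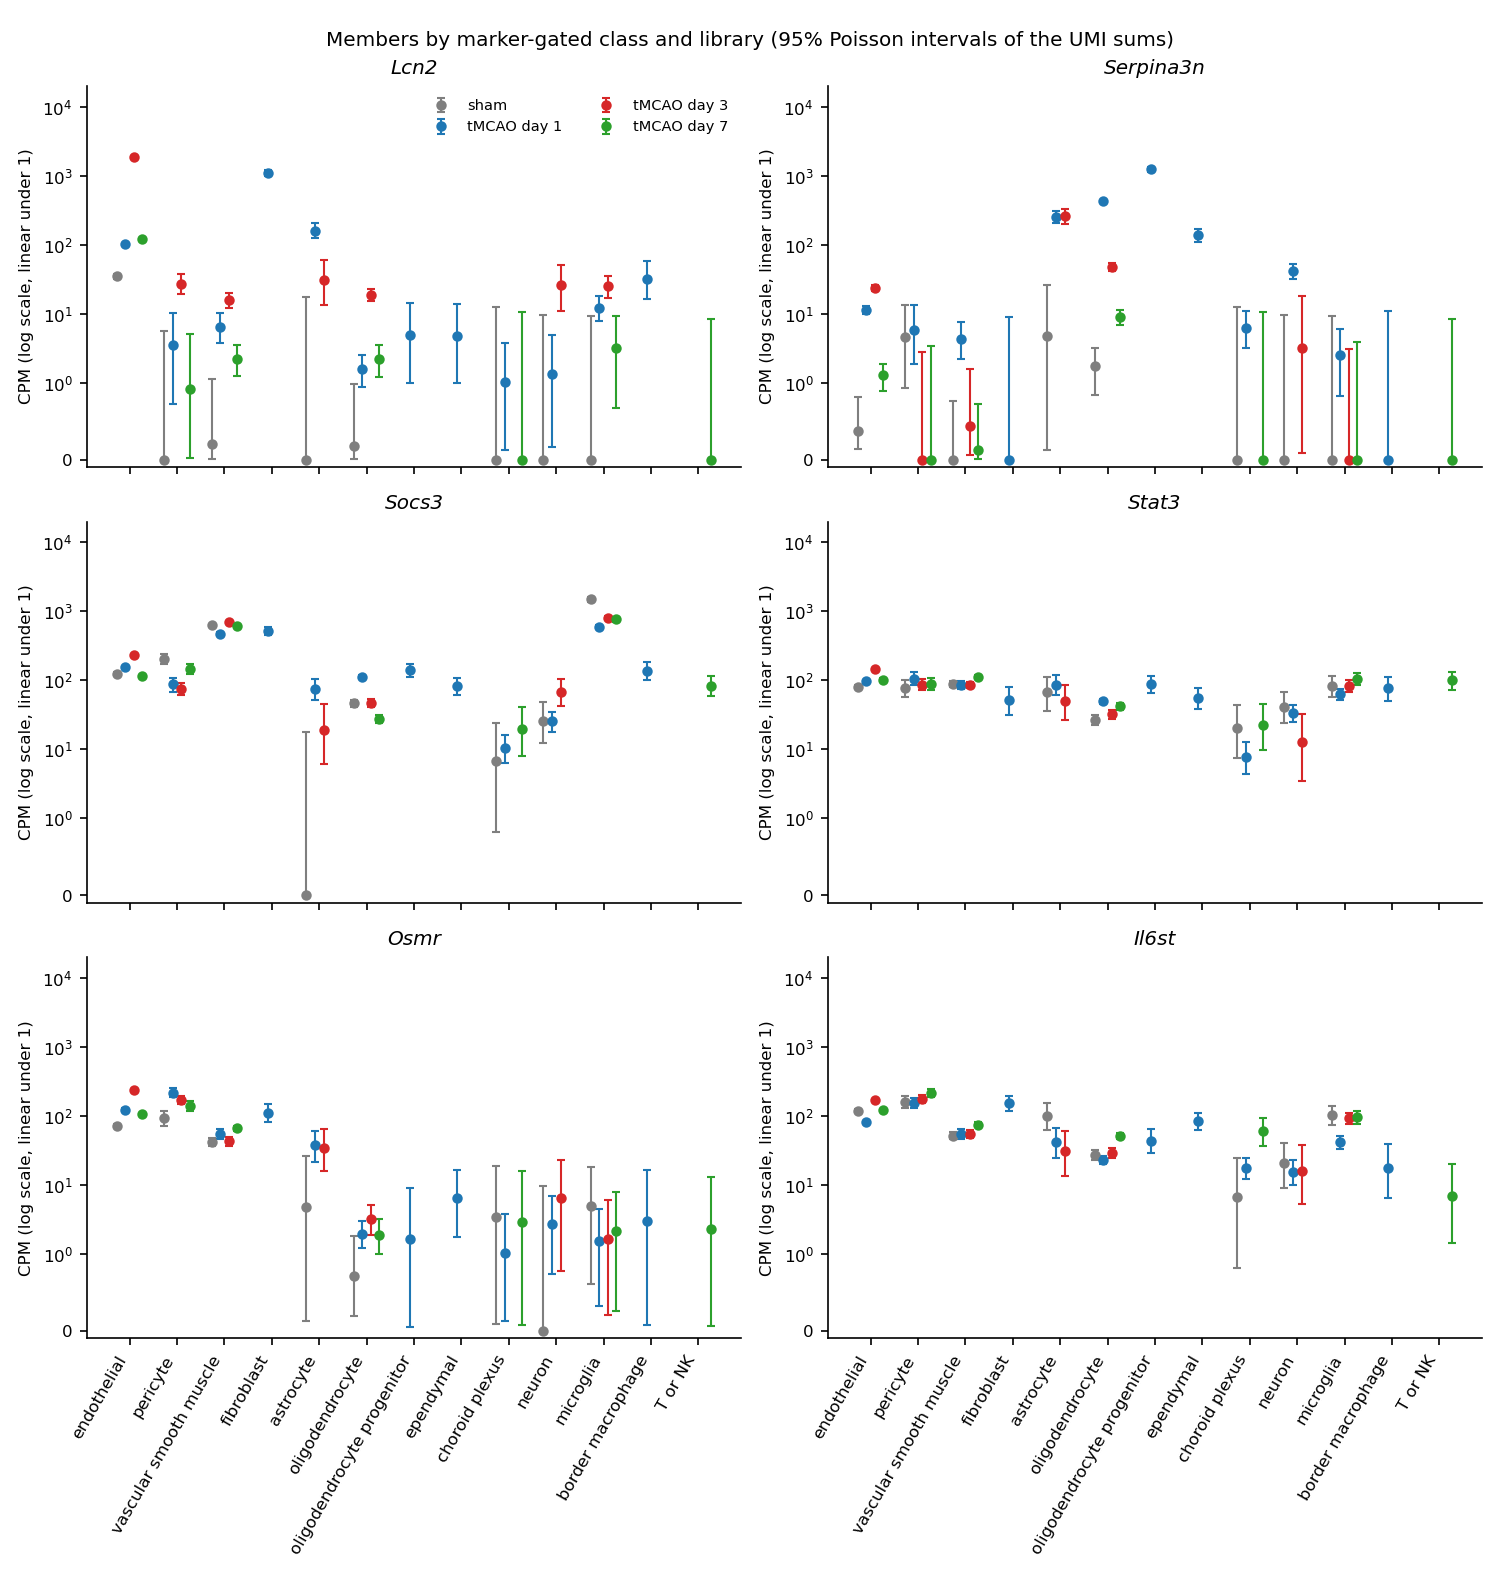
Level of each of the 6 genes (CPM on a log scale, linear under 1) in each class with at least 50 cells in a library, coloured by library, with exact 95% Poisson intervals as bars. Lcn2 in endothelial-like cells reached 1901 CPM on day 3, Serpina3n in oligodendrocyte progenitor-like cells reached 1236 CPM on day 1, and Stat3 stayed between 7.75 and 147 CPM throughout.

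To compare each day with sham, a gene was counted as higher or lower when the ratio of its levels, with 10 CPM added to each, was at least 2 or at most 0.5, among genes with at least 20 UMIs in the 2 sums together. In endothelial-like cells all 6 genes were measured at that depth on every day. On day 1, Lcn2 and Serpina3n were higher (2 of 6) and none lower, beside 0.681% of all genes measured that were higher and 0.857% that were lower. On day 3, Lcn2, Serpina3n and Osmr were higher (3 of 6) and none lower, beside 0.83% higher and 0.327% lower among all genes. On day 7, Lcn2 alone was higher (1 of 6), with backgrounds of 0.25% higher and 0.301% lower. The day 1 count was 1 under a stricter gate and 0 with 50 CPM added, and the day 7 count was 0 with 50 CPM added. The day 3 count was 2 with 50 CPM added, when Serpina3n fell under the limit at a log2 ratio of 0.54.

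In oligodendrocyte-like cells, Serpina3n and Socs3 were higher on day 1 (2 of 5 measured; background 0.837% higher and 0.314% lower), and Serpina3n and Lcn2 were higher on day 3 (2 of 6; 0.219% higher and 0.0858% lower). On day 7 none of the 4 measured genes passed either limit, where 0.781% of genes were higher and 0.214% lower. Over the processing alternatives the number higher in oligodendrocyte-like cells moved between 1 and 3 on day 1, between 0 and 3 on day 3 and between 0 and 2 on day 7. In astrocyte-like cells on day 1, Lcn2, Serpina3n and Socs3 were higher and Il6st was lower (5 measured), beside 8.04% of genes that were higher and 3.76% that were lower. On day 3, Serpina3n was higher and Il6st lower (3 measured), beside 6.65% higher and 4.12% lower. Over the processing alternatives the Il6st log2 ratio ran from -1.23 to -0.48 on day 1 and from -1.67 to -0.56 on day 3. Both calls of Il6st as lower were thus lost under some alternatives. Its sham level rested on 21 UMIs, of which 12 came from 1 cell and 9 from the others. The number higher in astrocyte-like cells moved between 1 and 4 on day 1 and between 0 and 4 on day 3 over the processing alternatives. The larger background shares in astrocyte-like cells went with small sums, from 64, 188 and 70 cells in sham and on days 1 and 3. The median log2 ratio of the genes measured was 0.50, 1.24 and 0.22 in endothelial-like cells on days 1, 3 and 7, where the median over all genes measured was -0.01, 0.01 and 0.05. Because the genes were chosen with such values in view, these counts describe the choice and carry no weight as evidence.

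**Figure D2:**
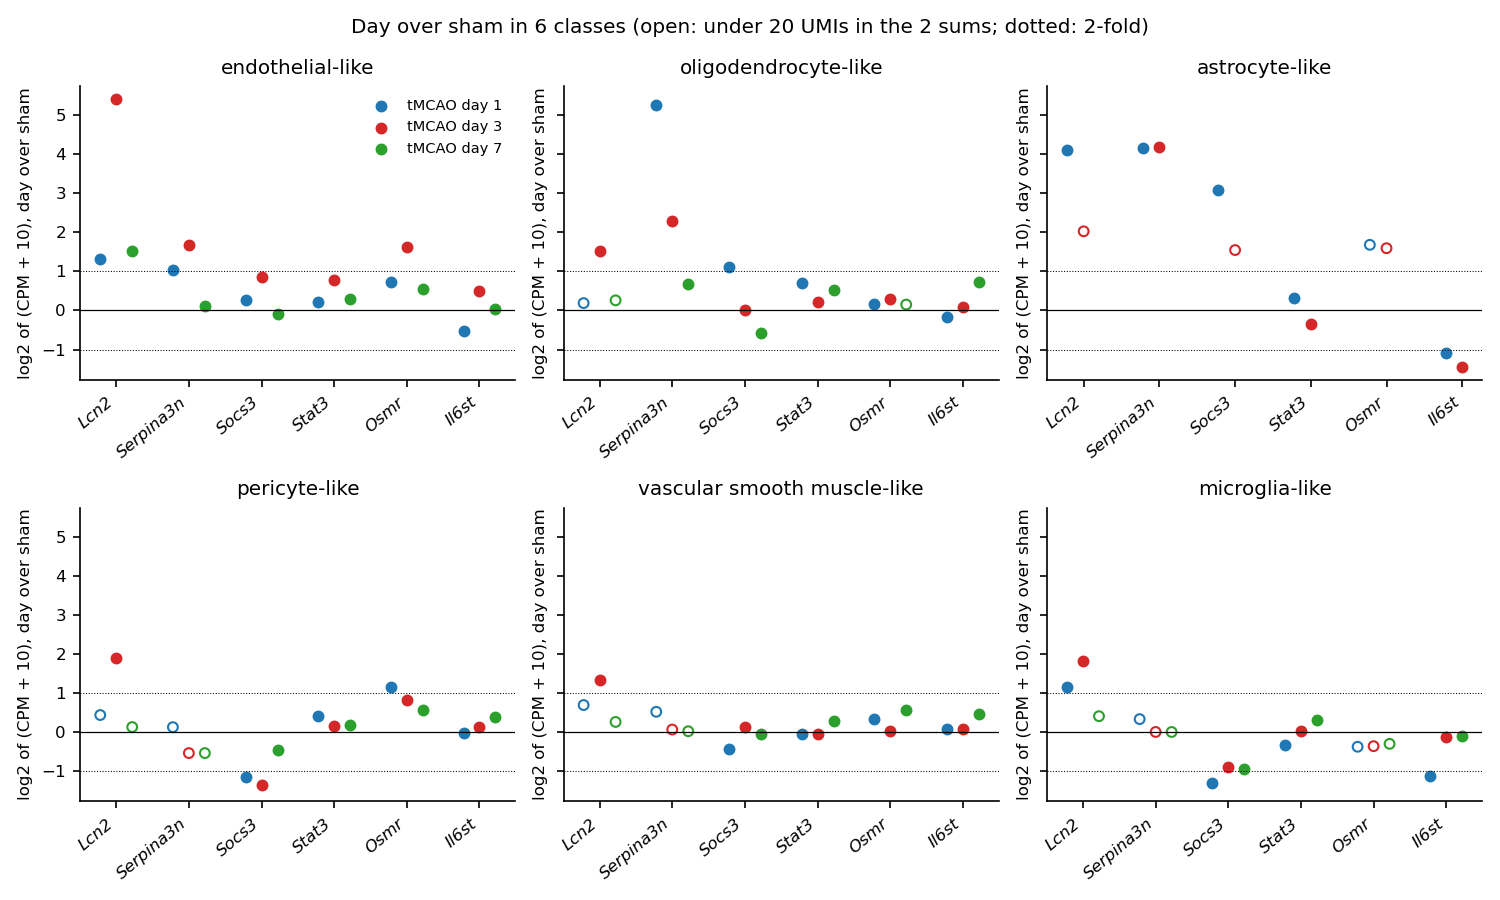
Log2 ratio of each day over sham, with 10 CPM added, for the 6 genes in 6 classes, coloured by day, where open points rest on fewer than 20 UMIs in the 2 sums and dotted lines mark a 2-fold difference. The highest points are Lcn2 in endothelial-like cells on day 3 (rank 1 of 13132 genes) and Serpina3n in oligodendrocyte-like cells on day 1 (5.25), and Il6st in astrocyte-like cells lies at -1.08 and -1.44. The sham level behind these 2 Il6st values rests on 21 UMIs, 12 of them from 1 cell.

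Osmr, the receptor chain for oncostatin M, was highest in the classes of the vessel wall. In endothelial-like cells it stood at 70.8, 123, 239 and 107 CPM in sham and on days 1, 3 and 7, so that all 3 tMCAO libraries were above sham and day 3 was the highest. The ratio to sham was 1.74 (1.62 to 1.87), 3.38 (3.16 to 3.61) and 1.51 (1.41 to 1.63) on the 3 days. In pericyte-like cells it stood at 92.4, 216, 169.8 and 140.0 CPM, with day 1 the highest and a ratio of 2.34 (1.74 to 3.18) there. Pericyte-like cells were above endothelial-like cells on days 1 and 7, endothelial-like cells were above pericyte-like cells on day 3, and in sham their intervals overlapped. Vascular smooth muscle-like cells came next, at 41.9 to 66.2 CPM, and the 105 fibroblast-like cells of day 1 stood at 110.5 CPM. Osmr was low in oligodendrocyte-like (0.707 to 3.23 CPM) and microglia-like cells (1.54 to 5.00 CPM). In oligodendrocyte-like cells it rested on 4, 22, 17 and 13 UMIs in sham and on days 1, 3 and 7, with a day 3 ratio of 4.57 (1.49 to 18.7). In microglia-like cells no library held more than 3 UMIs. In astrocyte-like cells 1, 16 and 9 UMIs in sham and on days 1 and 3 gave 4.77, 37.3 and 34.6 CPM.

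More endothelial-like cells showed Osmr after tMCAO. When each cell was thinned to 1000 UMIs, which left out 583, 1541, 676 and 1451 shallower cells, 7.83% (7.03 to 8.69) of sham cells held an Osmr UMI, against 11.5%, 22.5% (21.4 to 23.7) and 11.1% on days 1, 3 and 7. Without thinning the shares were 19.6%, 23.7%, 43.5% and 21.7%. Oligodendrocyte-like cells, thinned alike, held an Osmr UMI in 0.134% to 0.86% of cells.

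Il6st is the shared signalling chain. Its endothelial level was 119, 80.3, 172 and 123 CPM, lower than sham on day 1 by a ratio of 0.675 and higher on day 3 by a ratio of 1.44. Within single vessel segments, described below, the day 3 ratio was only 0.938 to 1.27. Pericyte-like cells held it at 155 to 212 CPM in the 4 libraries, the highest class in sham and on day 7, with intervals that overlapped those of fibroblast-like cells on day 1 and of endothelial-like cells on day 3. In microglia-like cells it stood at 102.5 CPM in sham, 41.5 on day 1, 92.2 on day 3 and 94.8 on day 7, so that day 1 was the low library, where the median gene of this class also lay 0.26 (log2) below sham. Astrocyte-like cells gave 100.2, 42.0 and 30.7 CPM in sham and on days 1 and 3, from 21, 18 and 8 UMIs, and 12 of the 21 sham UMIs came from 1 cell. Choroid plexus-like cells had 2 Il6st UMIs in sham (6.76 CPM) and 21 on day 7, a ratio of 8.87 (2.17 to 78.0).

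Among the other receptor chains, Il6ra, the IL-6 binding chain, stood at 47.8, 40.4, 107 and 60.4 CPM in endothelial-like cells, with a day 3 ratio of 2.24 (2.05 to 2.44). It was the only 1 of the 4 listed chains past the 2-fold limit in these cells on any day, where under 1% of all genes measured were higher (0.681%, 0.83% and 0.25% on days 1, 3 and 7). The same shares apply to the ligand, kinase and feedback lists below, and at such shares a count of 0 in so few genes says little. Il11ra1 stood at 53.0, 53.3, 54.9 and 34.7 CPM there, and Lifr, the receptor for leukaemia inhibitory factor, at 76.7, 66.0, 63.1 and 123 CPM. Il6ra in microglia-like cells was 168 CPM in sham and 43.6 CPM on day 1. Cntfr, the binding chain for ciliary neurotrophic factor, was high in astrocyte-like cells (386, 280.0 and 361 CPM in sham and on days 1 and 3) and between 1.48 and 2.37 CPM in endothelial-like cells.

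The ligand genes were sparse. None of the 7 passed the 2-fold limit in endothelial-like cells, where 2 were measured at the depth required. Osm, the ligand of Osmr, was found in microglia-like cells, at 75.0, 90.8, 130.4 and 99.1 CPM from 30, 177, 157 and 92 UMIs. The sham interval of Osm reached from 50.6 to 107 CPM, so that days 1 and 7 lay within it. Il6 stood in vascular smooth muscle-like cells at 0.827, 11.8, 9.04 and 2.84 CPM from 4, 33, 41 and 22 UMIs, a day 1 ratio of 14.3 (5.09 to 55.6). Il11 in the same class had 2, 39, 0 and 2 UMIs in sham and on days 1, 3 and 7, that is 0.413 CPM in sham and 14.0 CPM on day 1.

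Stat3 was found in every class given a level. In sham, the intervals of neighbouring classes in the order from vascular smooth muscle-like (88.9 CPM) to choroid plexus-like cells (20.3 CPM) all overlapped. Classes further apart in that order did not all overlap, such as endothelial-like (76.9 to 85.8 CPM) and oligodendrocyte-like cells (22.4 to 31.1 CPM). In endothelial-like cells it stood at 81.3, 96.9, 147 and 103 CPM, so that day 3 was the highest, with a ratio of 1.81 (1.69 to 1.94), and on that day the endothelial level was above that of every other class. In oligodendrocyte-like cells it stood at 26.5, 49.7, 32.3 and 42.4 CPM, with a day 1 ratio of 1.87 (1.56 to 2.26). Pericyte-like, vascular smooth muscle-like and microglia-like cells lay between 63.1 and 111 CPM in all 4 libraries. None of the Janus kinase genes Jak1, Jak2 and Tyk2 passed the 2-fold limit in endothelial-like cells, where Jak1 stood at 84.0, 57.4, 91.5 and 97.1 CPM.

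Socs3, the feedback inhibitor, had its highest level in microglia-like cells in sham, at 1485 CPM (1368 to 1609). On days 1, 3 and 7 the same class stood at 590.1, 791 and 767 CPM, below sham in all 3 libraries, with ratios of 0.397 (0.360 to 0.439), 0.533 and 0.516, beside a median gene 0.26, 0.07 and 0.05 (log2) below sham. Pericyte-like cells were also lower than sham, at 206 CPM in sham and 87.6, 75.0 and 146 CPM on the 3 days. Vascular smooth muscle-like cells were the second class in sham and on days 3 and 7, at 642, 703 and 618 CPM. On day 1, at 473 CPM, their interval overlapped that of fibroblast-like cells (525 CPM), which overlapped that of microglia-like cells in turn.

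Other classes stood above sham on some days. In endothelial-like cells Socs3 stood at 125, 154, 235 and 117 CPM, with a day 3 ratio of 1.88 (1.78 to 1.98). The day 7 ratio there was 0.933 (0.880 to 0.989), slightly below sham. In oligodendrocyte-like cells it stood at 46.5, 112, 47.1 and 27.6 CPM, so that day 1 was high and day 7 low, with ratios of 2.41 (2.11 to 2.77) and 0.594 (0.490 to 0.719). Astrocyte-like cells had no Socs3 UMI in sham and 32 on day 1, but 16 of the 32 came from 1 cell. The ratio was 5.22 when sham is set to 3 UMIs, and its exact lower limit was 4.00.

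Socs3 is also among the genes induced when tissue is digested, and the cells were released with papain at 37 °C. The summed level of 7 dissociation response genes (Fos, Egr1, Atf3, Dusp1, Hspa1a, Ier2 and Jun) is therefore given beside it. In microglia-like cells this sum was 24701 CPM in sham and 6331, 15522 and 20947 CPM on days 1, 3 and 7. In pericyte-like cells it was 7234 CPM in sham and 3510 to 4850 CPM afterwards, and in astrocyte-like cells it was 448 CPM in sham and 1330.0 CPM on day 1. In oligodendrocyte-like cells it was 3009, 4092, 1976 and 3404 CPM, highest on day 1 like Socs3 but above sham on day 7, when Socs3 was below it. In endothelial-like cells it was 10218, 10279, 8806 and 12346 CPM, lowest on day 3 where Socs3 was highest. The part of digestion in the Socs3 levels was not tested. Of the other feedback genes Socs1, Socs2, Cish and Pias3, none passed the 2-fold limit in endothelial-like cells.

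Most Lcn2 UMIs lay in endothelial-like cells. It stood there at 35.2, 103, 1901 and 120.0 CPM in sham and on days 1, 3 and 7, from 567, 1736, 30837 and 2723 UMIs. All 3 tMCAO libraries were above sham, and day 3 was far above the other 2. The ratios were 2.93 (2.66 to 3.23), 54.0 (49.7 to 58.8) and 3.41 (3.11 to 3.74), which gave Lcn2 rank 37 of 13657 genes on day 1, rank 1 of 13132 on day 3 and rank 3 of 13614 on day 7. Endothelial-like cells held 56.3% of the Lcn2 UMIs of the sham library, 62.6% on day 1 and 82.9% on day 3.

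Few cells carried most of these molecules. Thinned to 1000 UMIs, 58 of 4177 sham cells (1.39%) held an Lcn2 UMI, against 233 of 5127 (4.54%), 982 of 4941 (19.9%) and 334 of 7472 (4.47%) on days 1, 3 and 7. Without thinning the shares were 2.56%, 8.10%, 24.6% and 6.38%. The 1% of endothelial-like cells with the most Lcn2 held 84.5% of its UMIs in sham, 52.7% on day 1, 32.0% on day 3 and 59.9% on day 7. The highest cell held 63 UMIs in sham and 348 on day 3, and the number of cells with at least 10 UMIs was 9, 34, 540 and 76. On day 3, thinned oligodendrocyte-like cells held Lcn2 in 2.70% of cells and microglia-like cells in 1.22%.

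Lcn2 differed between vessel segments. Endothelial-like cells were split by 5 markers for each segment (arterial, such as Bmx and Gkn3; capillary, such as Mfsd2a and Rgcc; venous, such as Slc38a5, Vwf and Ackr1). Venous-like cells held Lcn2 at 549 CPM (502 to 599), 590 CPM (557 to 624), 9169 CPM (9062 to 9277) and 1268 CPM (1213 to 1324) in sham and on days 1, 3 and 7. Sham and day 1 overlapped, and the day 3 and day 7 ratios were 16.7 (15.3 to 18.3) and 2.31 (2.10 to 2.55). Capillary-like cells held 2.61, 26.7, 119 and 19.5 CPM, so that day 1 was already above sham, with ratios of 10.2 (7.09 to 15.2), 45.6 (32.1 to 67.0) and 7.45 (5.17 to 11.1). Arterial-like cells had 1, 12, 37 and 5 Lcn2 UMIs, that is 0.748 CPM in sham and 20.8 CPM on day 3.

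The venous-like cells were 274, 587, 908 and 575 cells, or 5.76%, 8.80%, 16.2% and 6.44% of the endothelial-like cells, and held 90.3%, 68.8%, 90.4% and 74.7% of their Lcn2 UMIs. The venous share was thus also highest on day 3, and the part of this share, or of a change in the venous markers themselves, in the endothelial Lcn2 level was not tested. Within venous-like and capillary-like cells, Lcn2 was higher on day 3 than in sham. In arterial-like cells the 37 UMIs of day 3 gave 20.8 CPM. That level lay within the 15.7 to 30.7 CPM of the non-endothelial classes with at least 50 cells that day, and the part of free RNA in it was not tested.

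**Figure D3:**
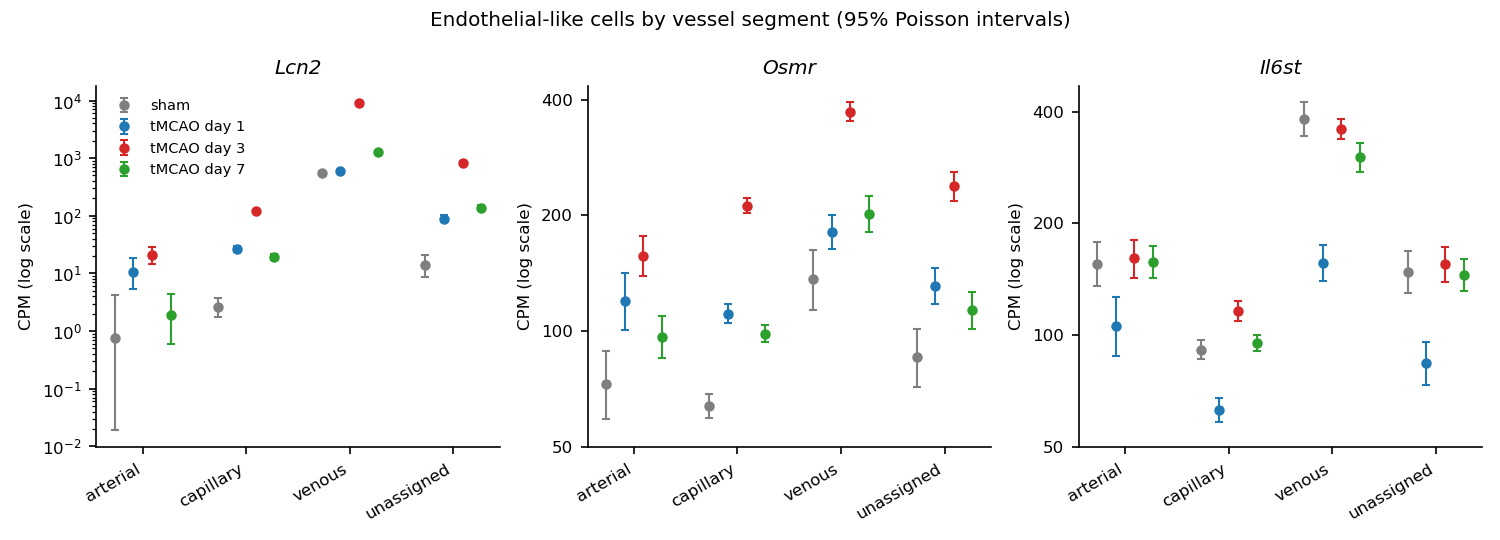
Levels of Lcn2, Osmr and Il6st (CPM, log scale) in arterial-like, capillary-like, venous-like and unassigned endothelial-like cells, coloured by library, with exact 95% Poisson intervals as bars. Venous-like cells held the highest Lcn2 in each library, from 549 CPM in sham to 9169 CPM on day 3, and Il6st was lowest on day 1 in every segment.

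The same split showed Osmr in all segments, with the venous level highest in each library (136, 181, 372 and 202 CPM). Its day 3 ratio to sham was 2.16 in arterial-like, 3.32 in capillary-like and 2.73 in venous-like cells. Il6st in venous-like cells was 383 CPM in sham, 156 on day 1, 359 on day 3 and 301 on day 7, a day 1 ratio of 0.409 (0.350 to 0.477). The day 1 ratios of arterial-like and capillary-like cells were 0.681 (0.540 to 0.856) and 0.688 (0.625 to 0.757), so that the low day 1 level of Il6st held in all 3 segments. The day 3 ratios were 1.03 (0.862 to 1.24) in arterial-like, 1.27 (1.17 to 1.38) in capillary-like and 0.938 (0.832 to 1.06) in venous-like cells. Each was below the 1.44 over all endothelial-like cells, and the part of the larger venous share on day 3 was not tested. Socs3 differed from sham most in capillary-like cells on day 3, at 241 CPM against 113 CPM, a ratio of 2.14.

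In the other classes with at least 50 cells, Lcn2 was at or near 0 in sham, where 1 UMI each was found in vascular smooth muscle-like and oligodendrocyte-like cells and none in the astrocyte-like, pericyte-like, microglia-like, choroid plexus-like or neuron-like cells. On day 3 the other 6 classes lay between 15.7 and 30.7 CPM, and neighbours in that order overlapped. Droplets take up free RNA from other cells, and its part in these low levels was not tested. In oligodendrocyte-like cells on day 3, 100 UMIs were spread over 84 of 817 cells, with at most 8 in a cell.

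Day 1 differed from this. Fibroblast-like and border macrophage-like cells reached 50 cells on day 1 only, and were given no level in the other libraries. Fibroblast-like cells stood at 1100 CPM (1000.2 to 1206), above the astrocyte-like cells at 161 CPM (125 to 204), which were above the endothelial-like cells at 103 CPM (98.3 to 108). The 448 fibroblast UMIs came from 22 of 105 cells, and 3 cells held 327 of them. The 69 astrocyte UMIs came from 13 of 188 cells, 3 of which held 48. With no UMI in sham, the astrocyte level on day 1 was 11.2-fold that of sham when sham is set to 3 UMIs. The exact lower limit of the ratio was 8.91. Border macrophage-like cells followed at 32.5 CPM and microglia-like cells at 12.3 CPM, with overlapping intervals.

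Neutrophils carry Lcn2 too, and the 112 neutrophil-like cells pooled over the libraries held it at 8625 CPM (8350 to 8908). The level was 3023 to 10170 CPM in the single libraries, each with 15 to 47 such cells. Of all Lcn2 UMIs, they held 38.5% in sham, against 5.08%, 7.28% and 12.6% on the 3 days after tMCAO. The neutrophil gene S100a9 stood at 155553 CPM in them, so that 0.0554 Lcn2 UMIs went with each S100a9 UMI. By this ratio, the S100a9 found in endothelial-like cells would go with 0.244%, 0.473%, 0.154% and 0.120% of their Lcn2 UMIs in sham and on days 1, 3 and 7. The summed level of the 8 neutrophil genes in endothelial-like cells was 4.35, 22.7, 109 and 6.92 CPM. In sham and on day 3 it was 2.30 and 58.5 CPM in oligodendrocyte-like cells. It was 1.52 and 56.1 CPM in pericyte-like and 1.86 and 34.2 CPM in vascular smooth muscle-like cells. By the S100a9 ratio, 8.93%, 5.545% and 6.48% of the day 3 Lcn2 UMIs of these classes would go with neutrophil RNA. These figures take stray RNA to keep the ratio of the 112 pooled cells. The part of neutrophil RNA in the Lcn2 levels was not tested.

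For the day 1 classes the same figure was 2.61% in fibroblast-like and 18.9% in astrocyte-like cells. All 235 S100a9 UMIs of the astrocyte-like cells lay in 1 cell, and 58 of the 69 Lcn2 UMIs lay in cells without S100a9. Likewise 1 fibroblast-like cell held all 211 S100a9 UMIs, and 415 of 448 Lcn2 UMIs lay in the cells without it. Osmr and Il6st were each at 0 CPM (0 to 8.59) in the pooled neutrophil-like cells, and Serpina3n had 1 UMI.

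**Figure D4:**
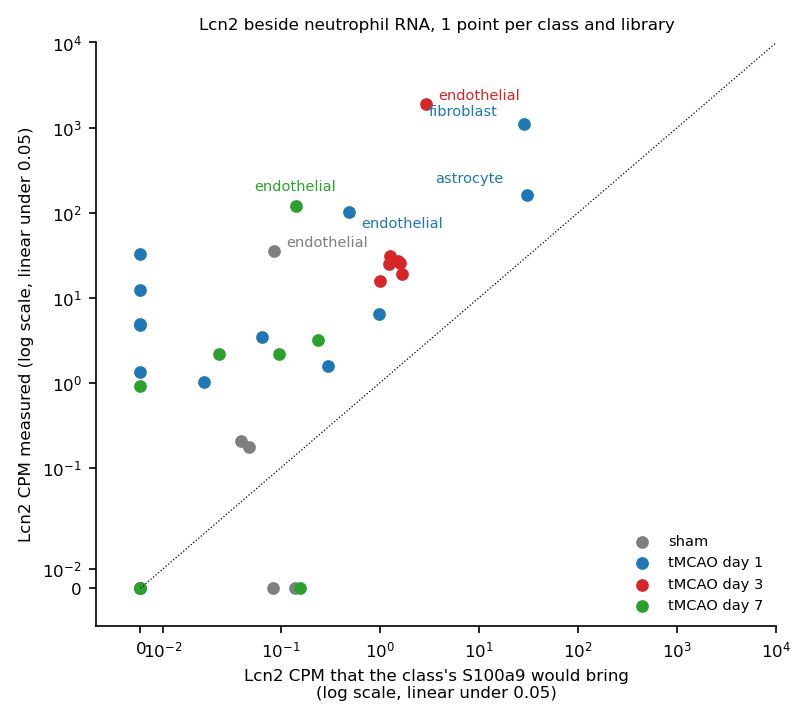
Measured Lcn2 (CPM, log scale, linear under 0.05) against the Lcn2 that the S100a9 of the same class would bring at the neutrophil-like ratio of 0.0554, 1 point per class and library, with equality dotted. Endothelial-like cells on day 3 lie at 1901 CPM against 2.94 CPM, and astrocyte-like cells on day 1 at 161 CPM against 30.4 CPM.

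Serpina3n was highest in glial classes on day 1. Oligodendrocyte-like cells held it at 1.77, 438, 47.9 and 8.87 CPM in sham and on days 1, 3 and 7, from 10, 4922, 252 and 61 UMIs. All 3 tMCAO libraries were above sham, in falling order from day 1 to day 7, with ratios of 248 (135 to 517), 27.1 (14.5 to 57.1) and 5.02 (2.55 to 11.0). Among all genes measured there it had rank 1 of 11476 on day 1 and rank 3 of 10486 on day 3. Oligodendrocyte progenitor-like cells, present in sufficient number on day 1 only, stood at 1236 CPM, from 761 UMIs in 76 of 199 cells.

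The day 1 signal was spread over many oligodendrocyte-like cells. A Serpina3n UMI was found in 855 of 2177 cells (39.3%), and no cell held more than 43. After thinning to 1000 UMIs the shares were 0.134%, 19.8% (18.1 to 21.5), 4.05% and 0.625% in sham and on days 1, 3 and 7. The thinned day 1 shares in vascular smooth muscle-like and endothelial-like cells were 0.70% and 0.995%.

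Astrocyte-like cells held Serpina3n at 4.77, 254 (209 to 307) and 257 CPM (199 to 327) in sham and on days 1 and 3, from 1, 109 and 67 UMIs. Both tMCAO libraries were above sham and overlapped each other, and the ratios of 53.3 (9.37 to 2125) and 53.9 (9.35 to 2162) are imprecise because sham held 1 UMI. On day 3, 46 of the 67 UMIs came from 3 of the 70 cells. Ependymal-like cells followed at 138 CPM on day 1 and neuron-like cells at 41.7 CPM, with intervals apart from each other. Fibroblast-like and border macrophage-like cells, the first of them high in Lcn2, had no Serpina3n UMI on day 1.

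In endothelial-like cells Serpina3n was low, at 0.372, 11.3, 23.4 and 1.32 CPM, from 6, 191, 379 and 30 UMIs. The day 3 value was the highest and lay in the venous-like cells, at 112 CPM against 2.60 CPM in capillary-like and 0 in arterial-like cells. The 6 oligodendrocyte markers summed to 78.2, 57.7, 49.8 and 78.4 CPM in endothelial-like cells, lowest on day 3, while the 6 astrocyte markers summed to 72.4, 135, 66.9 and 88.6 CPM. Oligodendrocyte-like cells held 72.5% of the Serpina3n UMIs of the day 1 library and endothelial-like cells 2.81%. On day 3 oligodendrocyte-like cells held 30.0% and endothelial-like cells 45.2%. Serpina3n has near-identical neighbours in its gene cluster, and reads shared between copies could affect its level. In endothelial-like cells on day 3, Serpina3f stood at 5.49 CPM and Serpina3g at 9.31 CPM beside Serpina3n at 23.4 CPM, and the part of shared reads was not tested.

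A list of 11 further acute phase genes was set beside the 6. In endothelial-like cells 3 of 9 measured were higher on day 1, 4 of 10 on day 3 and 0 of 8 on day 7, beside 0.681%, 0.83% and 0.25% of all genes measured. Timp1, an inhibitor of matrix metalloproteinases, stood at 1.49, 16.6, 23.4 and 1.32 CPM, and Cebpd, a transcription factor gene, at 120.2, 258, 397 and 163 CPM. Bcl3, a regulator of NF-κB, stood at 11.3, 19.1, 60.7 and 14.8 CPM, and Cp, which encodes the copper carrier ceruloplasmin, at 165, 189, 432 and 289 CPM. These 4 were the genes of the list past the limit on day 3.

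In oligodendrocyte-like cells 4 of 8 measured were higher on day 1 and none of 6 on days 3 and 7, beside 0.837%, 0.219% and 0.781% of all genes measured. Bcl3 went from 1 UMI in sham to 133 on day 1 (11.8 CPM), and Cebpb, Cebpd and Junb were the other 3. In astrocyte-like cells 4 of 5 were higher on day 1, beside 8.04% of all genes measured, with Timp1 at 0 UMIs in sham and 59 on day 1 (138 CPM), and 6 of the 7 dissociation response genes were higher there too. On day 3 both of the 2 measured were higher (background 6.65%). The largest count was in pericyte-like cells on day 1, where 5 of 7 measured were higher, and none lower, beside 2.07% higher and 1.12% lower among all genes measured. Saa3, a serum amyloid A gene, was found in microglia-like cells on day 1, with 0, 236, 1 and 3 UMIs in sham and on days 1, 3 and 7. Slc22a17, reported as a receptor for lipocalin 2, stood at 25.3 to 33.4 CPM in endothelial-like cells and passed no limit.

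Within endothelial-like cells, the other genes were then compared between cells with and without an Lcn2 UMI after thinning each cell to 1000 UMIs. Serpina3n on day 3 was 79.4 CPM in the 982 cells with Lcn2 and 2.02 in the 3959 without, a ratio of 39.3 (19.0 to 94.2), from 78 and 8 UMIs. The ratio was 8.20 (4.29 to 14.9) on day 1 and 53.4 (8.75 to 561) on day 7, and sham held 1 UMI in all. Within venous-like cells alone it was 4.14 (1.74 to 10.1) on day 1 and 8.31 (2.22 to 69.9) on day 3, with intervals that overlapped those over all endothelial-like cells. On day 7 the venous-like interval (0.774 to 327) included 1. Within capillary-like cells the Serpina3n ratio was 3.15 (0.0758 to 19.8) on day 1 and 6.38 (0.608 to 39.0) on day 3, both with intervals that included 1.

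Il6st was higher in cells with Lcn2 in every library, with ratios of 4.24, 2.35, 2.35 and 3.14 in sham and on days 1, 3 and 7 and intervals above 1. Within venous-like cells these were 1.83, 1.71, 2.19 and 1.65, also with intervals above 1. Within capillary-like cells they were 1.11 (0.0279 to 6.20), 1.98 (0.785 to 4.14), 1.66 (1.17 to 2.31) and 2.33 (1.32 to 3.81). The capillary-like intervals thus included 1 in sham and on day 1. Osmr was higher in cells with Lcn2 on days 1, 3 and 7 (1.86, 1.69 and 1.57). Within venous-like cells alone the Osmr ratio was 1.56 and 1.42 on days 1 and 3, with intervals above 1, and 0.717 (0.218 to 1.86) and 1.00 (0.657 to 1.52) in sham and on day 7. For Stat3, the intervals included 1 in sham and on days 1 and 7, and the day 3 ratio was 1.20 (1.02 to 1.41), but 1.21 (0.796 to 1.89) within venous-like cells alone, an interval that includes 1. Socs3 was higher in cells with Lcn2 in sham (2.76, 1.49 to 4.69), from 14 UMIs in 58 cells, while the intervals of the 3 later libraries included 1.

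**Figure D5:**
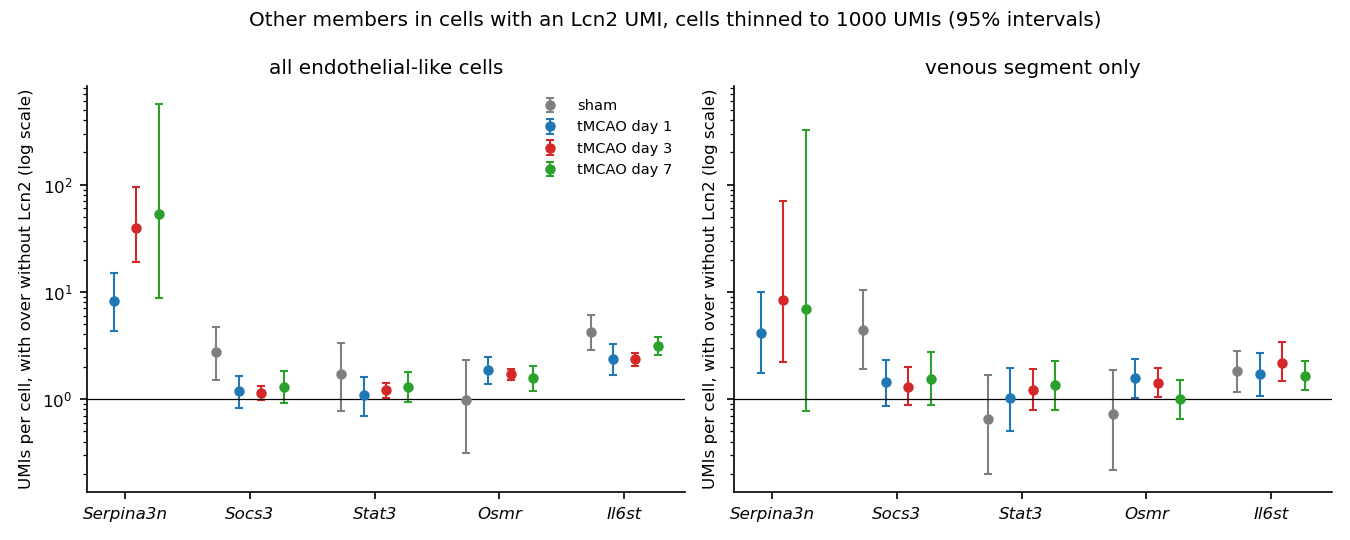
Ratio of UMIs per cell between endothelial-like cells with and without an Lcn2 UMI (log scale) for the other 5 genes, in all endothelial-like cells and in venous-like cells alone, coloured by library, with exact 95% intervals as bars. Serpina3n on day 3 lies at 39.3 in all cells and at 8.31 in venous-like cells, and Il6st lies above 1 in every library in both panels.

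The genes most like each of the 6 were taken by Pearson correlation of log2(CPM + 10) over 34 sums of a class in a library, given as a description, since these sums share libraries, depth and neighbouring cell types. Lcn2 was most like Lrg1 (0.83), Ptgs2 (0.81), P2ry1 (0.80), Alpl (0.78) and Fn1 (0.76). Serpina3n was most like Scrg1 (0.81), Sox21, S100b, Npas3 and Chadl (0.74), and Osmr was most like Ppic (0.95), Adgra2, Hrct1, Tead2 and Col4a1 (0.94). Socs3 was most like Junb (0.90), Ppp1r15a, Gadd45b, Dusp1 and Ier2 (0.86), of which Dusp1 and Ier2 are in the dissociation response list. Stat3 was most like Irf2 (0.84), Etv6, Tagln2, Ripk1 and Ehbp1l1 (0.80), and Il6st most like Stk3 (0.84), Itpripl2, Sparc, Tjp1 and 3222401L13Rik (0.81). Among the 6 themselves, Osmr and Il6st were the most alike (0.71), while Lcn2 and Serpina3n were close to unrelated (0.08).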

How the data were processed

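The authors deposited filtered UMI counts per gene and cell, whole numbers without normalization. The headers name Cell Ranger 4.0.0, whereas the submitters' processing notes name Cell Ranger 3.0.1, Seurat 4.1.2 and GRCh38, although the identifiers are mouse, and 30934 of 31053 matched GENCODE vM21. The methods' cell limits were applied, and left fewer cells than the study states after its own. Gates, sums, CPM, ratios, intervals and thinning were computed here from the deposited counts with Python 3.11.15, numpy 2.4.6, scipy 1.17.1, pandas 2.3.3 and scanpy 1.11.5, and figures were drawn with matplotlib 3.10.9. Clusters (Leiden, resolution 1, 2000 variable genes, 30 components) were named by the class of most of their gated cells. The gate matched the cluster name for 97.3% of gated cells, a share that is not independent of the gate. Doublets were kept, except in an alternative. Calculations were tested on simulated data. For astrocyte-like cells, no limit was set there on the recovery of lowered genes or on unchanged genes called.

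Named genes are the 6, all genes of the fixed lists (IL-6 family ligands and receptors, Janus kinases, STAT feedback, other acute phase, lipocalin receptors, neutrophil, dissociation and Serpina3 genes) and the 5 genes most like each, among genes with at least 50 CPM in a sum. The members and lists were chosen with earlier results of these data known. After CPM scaling, the median gene by a median of ratios lay 0.11, 0.12 and 0.12 (log2) above sham in endothelial-like, oligodendrocyte-like and vascular smooth muscle-like cells on day 7. It lay at -0.26 in microglia-like cells on day 1, at -0.40 and -0.17 in choroid plexus-like cells on days 1 and 7, at -0.15 and 0.15 in neuron-like cells on days 1 and 3, and within 0.08 of sham in the other comparisons. Depth limits the rare classes most, since 1 UMI was 4.77 CPM in sham astrocyte-like cells.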

Additional observations from a re-analysis of the deposited data

Results flagged for a closer look

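Socs3 differed from sham in opposite directions in different classes, which was not tested for want of replicate libraries. On day 1 its log2 ratio to sham, with 10 CPM added, was 3.08 in astrocyte-like and 1.11 in oligodendrocyte-like cells, and -1.15 in pericyte-like and -1.32 in microglia-like cells. The astrocyte value, where 16 of 32 UMIs came from 1 cell, ran from 1.21 to 6.24 over the processing alternatives, and the oligodendrocyte value from 0.75, under the 2-fold limit, to 1.25. On day 3 the log2 ratio was 1.11 in neuron-like cells, where 16 of 21 UMIs came from 3 cells, and -1.35 in pericyte-like cells. The summed dissociation response genes stood on the same side of sham as Socs3 in each of these classes on those days, in neuron-like cells by 1807 against 1841 CPM, and their part in the difference was not tested.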

How the results depend on the processing

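With 1 library per group, these alternatives say how the values depend on processing and nothing of the spread between mice. No paired analysis was possible because each group has 1 library. Across 504 alternative values of the 48 log2 ratios of the 6 genes in endothelial-like, astrocyte-like and oligodendrocyte-like cells, 454 moved by less than counting error, 50 moved by more. None of the ratios past the 2-fold limit changed sign. Of those nearer 0, the log2 ratio crossed it for Socs3 (-0.15 to 0.58 on day 1) and Il6st (-0.06 to 0.17 on day 7) in endothelial-like cells, Stat3 in astrocyte-like cells on day 3 (-0.62 to 0.27), and Socs3 (-0.04 to 0.44) and Il6st (-0.19 to 0.11) in oligodendrocyte-like cells on day 3. For Lcn2 in endothelial-like cells the day 1 log2 ratio ran from 0.85 to 1.52, the day 3 ratio from 4.52 to 5.72 and the day 7 ratio from 1.00 to 1.99, and that of Serpina3n on day 1 from 3.24 to 7.31 in oligodendrocyte-like and 2.47 to 5.47 in astrocyte-like cells. Of the 48 log2 ratios, 50 CPM added moved 16 and thinning to 1000 UMIs moved 11. Next came 1 CPM added and up to 6000 genes per cell, which moved 9 each.

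Of 108 alternative counts of genes at least 2-fold higher, 18 differed by over 1.5 times. The endothelial day 1 count of 2 became 1 under the stricter gate, 1 with clusters in place of the gate and 0 with 50 CPM added. The day 3 count of 3 became 5 at a limit of 1.5-fold, and the day 7 count of 1 became 0 with 50 CPM added. In astrocyte-like cells the day 1 count of 3 became 1 with at least 100 UMIs and 1 with thinned cells. The day 3 count of 1 became 3 with up to 6000 genes per cell, 2 under the looser gate, 0 with at least 100 UMIs and 4 with no minimum. In oligodendrocyte-like cells the day 1 count of 2 became 1 with 50 CPM added and 1 with thinned cells, and the day 3 count of 2 became 0 with 50 CPM added. The day 7 count of 0 became 1 with up to 6000 genes per cell, 1 at a mitochondrial limit of 5%, 1 with 1 CPM added and 2 at 1.5-fold. The causes were not tested. The counts over all genes moved by factors of 0.155 to 13.6 under the same alternatives. The stricter gate and the 5% limit left too few astrocyte-like cells for a value. Scrublet at its automatic threshold marked 0.264%, 4.35%, 0.0427% and 0.0142% of cells in sham and on days 1, 3 and 7, under 0.5% in 3 libraries, and was replaced, after the data were seen, by leaving out cells with a score of at least 0.25, which moved no log2 ratio by more than counting error.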
